A study of Homo sapiens with 12 samples.

Results

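Both arms of the miRNA hairpins miR-186 (hsa-miR-186-5p and hsa-miR-186-3p), miR-191 (hsa-miR-191-5p and hsa-miR-191-3p) and miR-342 (hsa-miR-342-5p and hsa-miR-342-3p) were followed on the 12 miScript miRNA PCR Arrays of OCI-My5 cells, a human multiple myeloma (MM) cell line. These 6 miRNAs are 6 of the 372 miRNAs on each array, and all 6 were found. The 3 hairpins were chosen by the levels of their 3p arms after 5 days of lenalidomide, which earlier results of the same arrays had shown to be low. The levels at 5 days are therefore given as a description and support nothing by themselves. In the data the choice holds for miR-186-3p and miR-191-3p in both cell lines, whereas miR-342-3p was low on 1 array only.

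My5.LV cells were infected with an empty lentiviral vector and express a low level of cereblon (CRBN), and My5.CRBN cells carry CRBN cDNA and express a high level. Both are populations of lentivirus-infected OCI-My5 cells that were sorted for GFP. RNA of each line was measured in un-treated cells, in cells with the AGO2-shRNA sh72 or the AGO2 cDNA, in cells given 10 μM lenalidomide for 72 hours (3 days) or 120 hours (5 days), and in cells with both AGO2 cDNA and 72 hours of lenalidomide. AGO2 is named EIF2C2 in the sample labels, and per the methods the AGO2-shRNA and the tagged AGO2 cDNA were delivered by lentivirus and selected with puromycin. Every condition was measured on 1 array, so that replicates do not back any difference between conditions and no p-value is given. Arrays of cells with an empty shRNA or cDNA vector were not analysed here. Neither AGO2 nor CRBN is measured by these arrays, and the success of the knockdown or overexpression was not analysed here.

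A miRNA gene is transcribed into a long primary RNA, and Drosha and Dicer cut a hairpin out of it into a short duplex. One strand of the duplex comes from the 5′ side of the hairpin (the 5p arm) and the other from the 3′ side (the 3p arm). Argonaute proteins such as AGO2 usually keep one strand, the guide, and the other strand is degraded, although both strands of some hairpins are kept. The arms of a hairpin share transcription and cutting, and they part at strand selection and decay. miR-191 and its neighbour miR-425 are made in many tissues. miR-342 is abundant in lymphocytes, and miR-186 is made from an intron of a gene that is active in most cells.

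The sequences below are those of RefSeq (GRCh38.p14), shown because the arms of one hairpin have different seeds and so different targets. Capitals mark the seed, bases 2 to 8 from the 5′ end. A mature sequence was matched for 5 of the 6 miRNAs.
miR-186-3p: gCCCAAAGgugaauuuuuuggg
miR-191-5p: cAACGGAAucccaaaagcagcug
miR-191-3p: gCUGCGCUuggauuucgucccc
miR-342-5p: aGGGGUGCuaucugugauuga
miR-342-3p: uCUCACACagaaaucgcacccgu
These 5 miRNAs had 5 different seeds. None of the other array miRNAs with a sequence shared one of them, among 330 of the 372 that were matched by name.

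The hairpins of miR-191 and miR-342 are shown whole, with both arms in capitals, to show how the measured pieces lie on one RNA.
miR-191 hairpin: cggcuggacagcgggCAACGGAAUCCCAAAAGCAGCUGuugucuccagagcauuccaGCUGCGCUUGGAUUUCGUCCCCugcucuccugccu
miR-342 hairpin: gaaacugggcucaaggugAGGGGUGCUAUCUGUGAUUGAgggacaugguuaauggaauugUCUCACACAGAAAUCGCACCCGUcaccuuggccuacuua
In miR-191, 19 bases of the loop part the arms, and in miR-342, 21 bases.

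In GRCh38.p14, MIR186 lies on chromosome 1 from 71067631 to 71067716 on the minus strand, within the span of ZRANB2. MIR191 lies on chromosome 3 from 49020618 to 49020709 on the minus strand, within the spans of DALRD3 and NDUFAF3. MIR425 ends 383 bases from it, also within DALRD3, and no other miRNA gene lies within 50 kilobases. MIR342 lies on chromosome 14 from 100109655 to 100109753 on the plus strand, within EVL, and MIR151B is its only miRNA neighbour within 50 kilobases. The 3 hairpins are generally described as intronic, and the exons of these genes were not used here.

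The values as deposited are threshold cycles (Ct), the number of PCR cycles a well needs for its signal to reach a set threshold. The lower the level, the higher the Ct, and 1 cycle stands for about 2 fold. Undetermined wells and those past 35 were given a Ct of 35, called the cap below. The normalized level of a miRNA is its Ct taken from the average Ct of 6 control wells, which hold small nucleolar RNAs and RNU6, on the log2 scale. The difference between the arms is the Ct of the 5p arm minus that of the 3p arm on one array. It holds no normalizer, and it falls when the 3p arm is lost relative to the 5p arm. The arms are measured with different primers, so the difference on a single array is not a ratio of molecules, and only its change between arrays is read. The same change was taken for all 86 hairpins with both arms on the array.

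Of the 6 hematopoietic miRNAs used as a check of the cells, 3 were at a high level. miR-142-3p had the lowest Ct of all 372 miRNAs in un-treated My5.LV cells. miR-142-5p and miR-150-5p had median Ct values of 21.4 and 20.2 over the 12 arrays. miR-155-5p, a miRNA of activated B cells, was low with a median Ct of 32.6, and was past the cap on the array of My5.LV cells at 120 hours. miR-223-3p and miR-451a, of myeloid and red blood cells, had medians of 29.0 and 29.5. The mean Ct of the control wells ran from 18.7 to 21.9 cycles between arrays. Between 324 and 367 miRNAs were under the cap on an array.

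The wells of miR-191-5p, miR-191-3p, miR-186-5p and miR-342-3p were far from the cap where determined. Over the 12 arrays the median Ct was 20.3 for miR-191-5p and 21.8 for miR-191-3p. It was 22.9 for miR-186-5p and 31.2 for miR-186-3p, whose highest Ct was 33.9. For miR-342-5p the median was 29.0, and for miR-342-3p it was 24.7 over the 11 arrays where it was determined. Duplicate wells of one assay on one array differed by a root mean square of 0.187 cycles (reverse transcription control) or 0.383 cycles (positive PCR control).

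miR-186-5p had a level of -2.47 in un-treated My5.LV cells, -4.46 with AGO2-sh72, -2.55 with the cDNA of AGO2, -2.47 at 72 hours of lenalidomide, -2.52 with AGO2 cDNA and lenalidomide and -2.17 at 120 hours. In My5.CRBN cells its level was -2.48 without treatment, -5.0 with AGO2-sh72, -1.84 with the cDNA, -2.61 at 72 hours, -2.67 with AGO2 cDNA and lenalidomide and -2.29 at 120 hours. The 10 arrays without AGO2-sh72 were within 1 cycle of each other, and the AGO2-sh72 arrays were below them all. miR-186-3p had levels in My5.LV cells of -10.55 without treatment, -12.94 with AGO2-sh72, -10.47 with the cDNA, -9.20 at 72 hours, -9.58 with AGO2 cDNA and lenalidomide and -13.63 at 120 hours. In My5.CRBN cells they were, in the same order, -9.73, -11.71, -9.76, -9.11, -10.38 and -12.97. miR-186-3p was thus low on the AGO2-sh72 arrays, as its 5p arm was, and also on the 120-hour arrays, where its 5p arm was not.

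miR-191-5p had levels of 0.16 in un-treated My5.LV cells, -1.42 with AGO2-sh72, 0.18 with AGO2 cDNA, 0.04 at 72 hours, 0.03 with AGO2 cDNA and lenalidomide and 0.42 at 120 hours. In My5.CRBN cells they were 0.44, -0.81, 0.68, -0.43, -0.10 and -0.06 in the same order. The AGO2-sh72 arrays were again the lowest. miR-191-3p had levels of -1.52 in un-treated My5.LV cells, -0.64 with AGO2-sh72, -0.43 with AGO2 cDNA, -2.04 at 72 hours, -2.72 with AGO2 cDNA and lenalidomide and -4.49 at 120 hours. In My5.CRBN cells they were -2.20, -0.10, -1.51, -1.52, -1.64 and -7.75. The 3p arm of miR-191 was at its lowest on both 120-hour arrays, and the AGO2-sh72 arrays were among its 3 highest.

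miR-342-5p had levels of -8.32, -9.30, -8.80, -8.54, -8.99 and -7.70 in My5.LV cells, in the order without treatment, AGO2-sh72, AGO2 cDNA, 72 hours, AGO2 cDNA and lenalidomide, and 120 hours. In My5.CRBN cells they were -8.24, -9.03, -8.44, -8.74, -8.71 and -8.46. The levels of miR-342-3p in My5.LV cells were -4.10, -5.54, -4.47, -4.12 and -4.20 on the first 5 of these arrays, and at 120 hours its well was undetermined. In My5.CRBN cells miR-342-3p had levels of -4.56, -5.15, -3.23, -4.11, -4.40 and -4.24, with no drop at 120 hours.

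**Figure D1:**
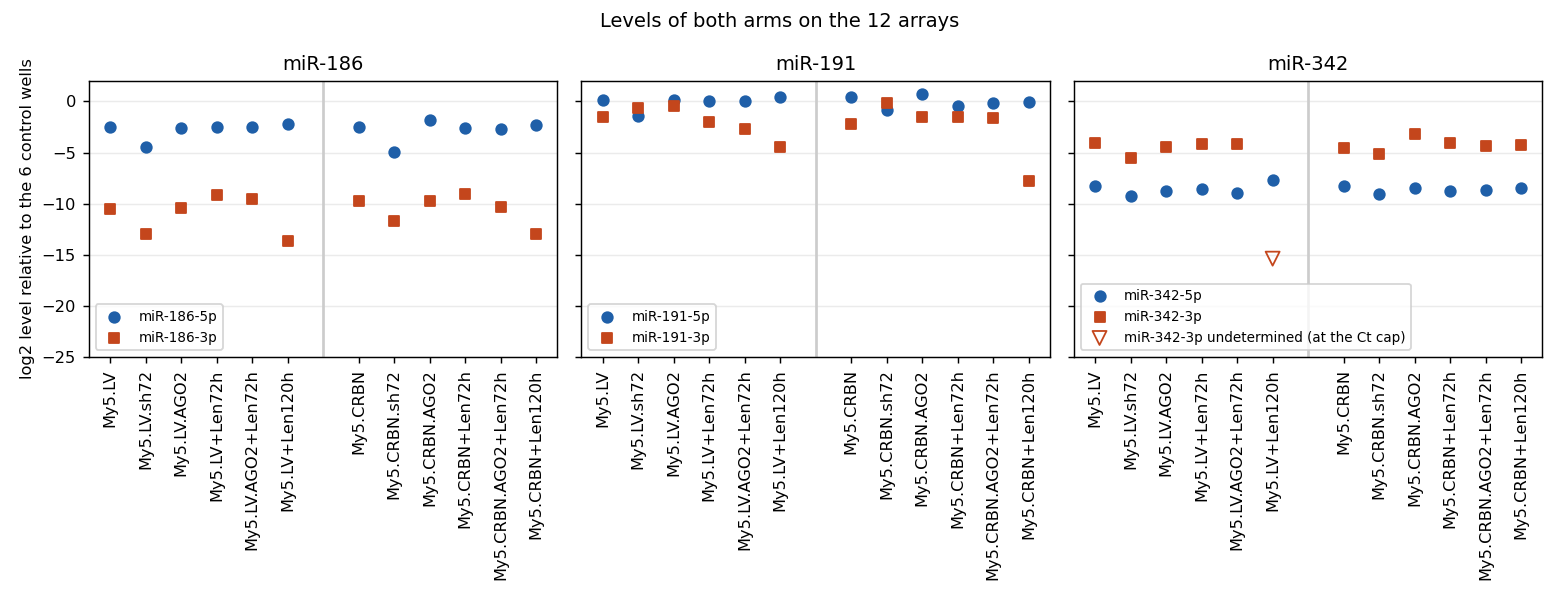
Normalized level (log2, relative to the mean of the 6 control wells) of the 5p arm (blue circles) and the 3p arm (red squares) of each hairpin on each of the 12 arrays, My5.LV arrays left and My5.CRBN arrays right of the grey line, 1 array per point. miR-186-3p and miR-191-3p are at their lowest on both Len120h arrays, and the open triangle is the undetermined well of miR-342-3p, drawn at the Ct cap of 35 as an upper bound of its level.

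After 120 hours of lenalidomide, the 3p arms of miR-186 and miR-191 fell in both cell lines while their 5p arms changed by 0.50 or less on the log2 scale. The log2 fold change of miR-186-3p relative to the un-treated cells was -3.08 for My5.LV and -3.24 for My5.CRBN cells. In these bulk samples fewer cells that hold a miRNA and less of it per cell cannot be told apart. The values for miR-186-5p were 0.30 and 0.20. For miR-191-3p they were -2.97 and -5.54, and for miR-191-5p 0.26 and -0.50. The 6 control wells had an SD of 0.41 for My5.LV and 0.22 for My5.CRBN cells around their mean change. Over all 372 miRNAs, 53 (14.2%) fell at least 3 fold for My5.LV and 50 (13.4%) for My5.CRBN cells. Since these changes chose the members, nothing is read from the members' count against these shares. With the global mean, RNU6 alone or the reverse transcription control wells as normalizer, the change of miR-186-3p ran from -3.34 to -2.85 and that of miR-191-3p from -5.65 to -2.75 over both lines. With a Ct cap of 32, the change of miR-186-3p in My5.LV cells was -1.85, since its Ct at 120 hours lies above that cap.

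The Ct as deposited, from which the members were chosen, are given as a description. In My5.CRBN cells at 120 hours, 339 of the 372 miRNAs had a lower Ct than without treatment and 24 a higher one, and the mean Ct of the control wells changed by -2.09 cycles. The Ct of miR-191-3p was 3.45 cycles higher, the second largest rise of the 372, and that of miR-186-3p 1.15 cycles higher. In My5.LV cells 128 miRNAs had a higher Ct at 120 hours, and those of miR-186-3p and miR-191-3p were 2.52 and 2.42 cycles higher.

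The difference between the arms of miR-186 was -8.08 cycles in un-treated My5.LV cells and -11.45 at 120 hours, a change of -3.38 cycles or 10.4 fold. With a Ct cap of 32 this change was -2.15 cycles, and a filter on both arms under Ct 30 leaves miR-186 out in both lines. In My5.CRBN cells it was -7.24 without treatment and -10.68 at 120 hours, a change of -3.44 cycles or 10.8 fold. For miR-191 the difference went from -1.68 to -4.92 in My5.LV cells (-3.24 cycles, 9.42 fold) and from -2.64 to -7.69 in My5.CRBN cells (-5.04 cycles, 33.0 fold). The same change between a pair of control wells had a root mean square of 0.58 cycles for My5.LV and 0.31 cycles for My5.CRBN cells, and a largest value of 1.10 and 0.56 cycles. As the members were chosen by this fall, nothing is read from its size against the control wells, whose spread is also that of wells and not of cultures. The difference fell at least 3 fold in 15 of the 86 hairpins in My5.LV cells (17.4%) and in 12 in My5.CRBN cells (14%). It rose at least 3 fold in 12 (14%) and 10 (11.6%) hairpins. Among hairpins with both arms under Ct 30 on at least 1 array, a fall made up 17.4% and 7.41%, and a rise 8.7% and 5.56%. The difference fell at least 3 fold in both lines in 6 of the 86 hairpins (6.98%). They were miR-186, miR-191, miR-425, miR-499a, miR-10b and miR-486, of which miR-10b and miR-486 are named with their values known. Each of these had its 3p well at the cap on 1 of the 4 arrays compared. The hairpin miR-425 was only just past 3 fold in My5.CRBN cells, at 3.04 fold. The median change over the 86 hairpins was 0.05 cycles for My5.LV and -0.02 cycles for My5.CRBN cells.

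On the 10 arrays other than those of 120 hours, the difference of miR-186 ran from -8.48 to -6.50 with a median of -7.48. That of miR-191 ran from -2.76 to 0.77 with a median of -1.61. Both 120-hour arrays were below all 10 for each of them. This was so for 18 of the 86 hairpins (20.9%), and for 7 (8.14%) both were above all 10. Since the 10 arrays are of 10 conditions, their range is not a replicate spread.

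At 72 hours of lenalidomide none of the 3 hairpins had an arm difference changed by 3 fold. In My5.LV cells the change was 1.35 cycles for miR-186, -0.39 for miR-191 and 0.20 for miR-342, and 5.81% of the 86 hairpins were changed at least 3 fold in either direction. In My5.CRBN cells it was 0.75, 1.55 and 0.95, and 14% of the hairpins were past 3 fold. The root mean square between control wells was 0.26 and 0.31 cycles and the largest difference between them 0.51 and 0.66 cycles. The values of miR-191 and miR-342 in My5.LV cells thus lay within what a pair of control wells gave. That of miR-186 in My5.LV cells and those of all 3 hairpins in My5.CRBN cells lay outside it, each a rise. This spread is that of wells and not of cultures. Between 72 and 120 hours the difference of miR-186 changed by -4.73 cycles in My5.LV and by -4.19 in My5.CRBN cells. For miR-191 the changes were -2.84 and -6.59 cycles.

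**Figure D2:**
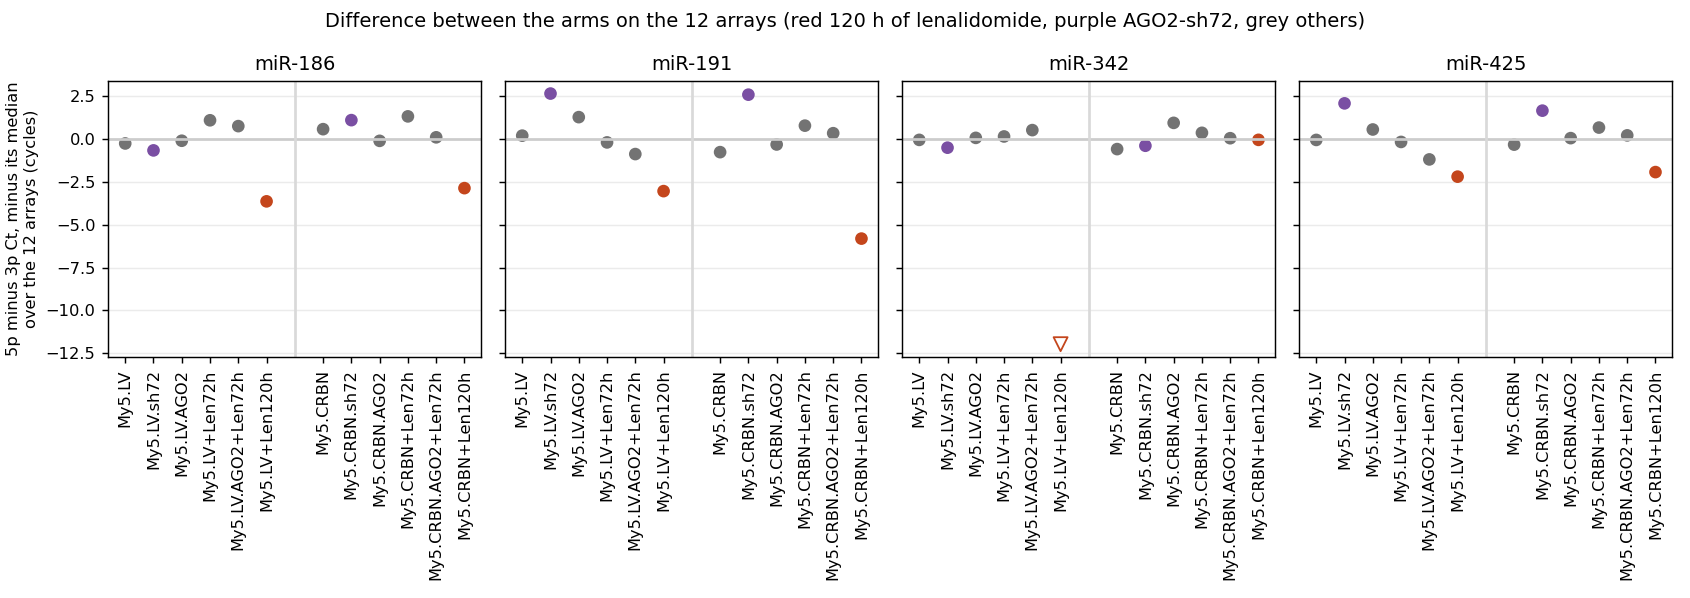
Ct of the 5p arm minus Ct of the 3p arm on each of the 12 arrays, in cycles from the median of that hairpin over the 12 arrays, with My5.LV arrays left and My5.CRBN arrays right of the grey line. The 120-hour arrays (red) are the lowest for miR-186, miR-191 and miR-425, the AGO2-sh72 arrays (purple) the highest for miR-191 and miR-425, and miR-342 departs on the My5.LV 120-hour array only (open triangle, an upper bound).

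miR-342-3p was undetermined on the My5.LV array at 120 hours, against a Ct of 24.3 without treatment and 24.5 at 72 hours. Its log2 fold change was thus at most -11.29, with the well at the cap, and the change in the arm difference at most -11.92 cycles, while miR-342-5p changed by 0.62. In My5.CRBN cells at 120 hours, miR-342-3p had a Ct of 22.9, a log2 fold change of 0.32 and an arm difference changed by 0.54 cycles. On the other 11 arrays the Ct of miR-342-3p ran from 22.9 to 26.5. Of the 33 undetermined miRNA wells of the 12 arrays, 5 were on the My5.LV 120-hour array. The other 32 wells belonged to miRNAs with a median Ct of 34.3 or higher on the other 11 arrays, and the well of miR-342-3p was the only one with a median under 30. Whether the well failed or the miRNA was lost was not tested, and the arm-discordance of miR-342 rests on this well.

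With AGO2-sh72 the 3 hairpins parted. Both arms of miR-186 were lower, with log2 fold changes in My5.LV cells of -1.98 for miR-186-5p and -2.39 for miR-186-3p. In My5.CRBN cells they were -2.51 and -1.99. The arm difference of miR-186 changed by -0.40 and 0.53 cycles, against a root mean square of 0.72 and 0.42 cycles between control wells. With a Ct cap of 32, below the Ct of miR-186-3p on the My5.LV array, the first of these values was 1.5. The log2 fold change of miR-186-3p under that cap was -0.48 for My5.LV cells, short of 3 fold, and -1.83 for My5.CRBN cells. The median over the 372 miRNAs was -0.79 for My5.LV and -0.52 for My5.CRBN cells, and with the global mean as normalizer these medians were 0.07 and 0.02. In all, 23.7% and 12.9% of the 372 miRNAs were at least 3 fold lower. The global mean left the change of miR-186-5p at -1.12 and -1.97 and that of miR-186-3p at -1.53 and -1.44.

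The arms of miR-191 moved apart with AGO2-sh72, in the direction opposite to that at 120 hours of lenalidomide. The 5p arm had a log2 fold change of -1.58 for My5.LV and -1.25 for My5.CRBN cells. With the global mean as normalizer these values were -0.72 and -0.71. The 3p arm changed by 0.87 in My5.LV cells, and by -0.11 with RNU6 alone as normalizer. In My5.CRBN cells the 3p arm rose by 2.10 (4.29 fold), with a range over the normalizers from 1.65 to 2.65, and 1.61% of the 372 miRNAs were at least 3 fold higher there. The arm difference of miR-191 went from -1.68 to 0.77 cycles in My5.LV cells, a change of 2.45 or 5.48 fold. In My5.CRBN cells it went from -2.64 to 0.71, a change of 3.35 or 10.2 fold, the largest increase of the 86 hairpins. A rise of at least 3 fold was found in 18 hairpins in My5.LV cells (20.9%), in 13 in My5.CRBN cells (15.1%) and in 8 in both lines (9.3%). Of the 3 hairpins only miR-191 was among the 8. A fall of at least 3 fold was found in 9 hairpins in My5.LV cells (10.5%) and in 6 in My5.CRBN cells (6.98%), with none of the 3 among them. Among hairpins with both arms under Ct 30 on at least 1 array, a fall made up 4.65% and 0%, and a rise 20.9% and 17.1%. Both AGO2-sh72 arrays were above all 10 other arrays for miR-191, as for 13 of the 86 hairpins (15.1%). The comparisons with AGO2-sh72 and with lenalidomide share the un-treated arrays. The opposite directions were not particular to miR-191. The arm difference of miR-499a changed by -2.79 and -2.74 cycles at 120 hours and by 1.69 and 2.21 with AGO2-sh72 in My5.LV and My5.CRBN cells. That of miR-10b, named with its values known, changed by -2.14 and -2.24 at 120 hours and by 2.87 and 2.65 with AGO2-sh72. The well of miR-10b-3p was at the cap in un-treated My5.CRBN cells, so that both My5.CRBN values of miR-10b rest on a capped well.

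For miR-342 the log2 fold changes with AGO2-sh72 were -0.98 for the 5p arm and -1.44 for the 3p arm in My5.LV cells, and -0.79 and -0.59 in My5.CRBN cells. With the global mean they were -0.12 and -0.57 in My5.LV cells, and -0.24 and -0.05 in My5.CRBN cells. The arm difference of miR-342 changed by -0.46 and 0.20 cycles, less than the root mean square between control wells.

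AGO2 cDNA changed none of the 3 arm differences by 3 fold, against 16.3% of the 86 hairpins in either line. In My5.LV cells the changes were 0.16 cycles for miR-186, 1.08 for miR-191 and 0.12 for miR-342, and in My5.CRBN cells -0.68, 0.45 and 1.53. The largest of these, that of miR-342 in My5.CRBN cells, came with a log2 fold change of 1.33 for miR-342-3p and -0.20 for miR-342-5p. AGO2 cDNA with 72 hours of lenalidomide also left the 3 within 3 fold, where 15.1% of the hairpins for My5.LV and 8.14% for My5.CRBN cells were past it. The changes were 1.01, -1.07 and 0.57 cycles in My5.LV and -0.48, 1.10 and 0.64 in My5.CRBN cells for miR-186, miR-191 and miR-342.

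**Figure D3:**
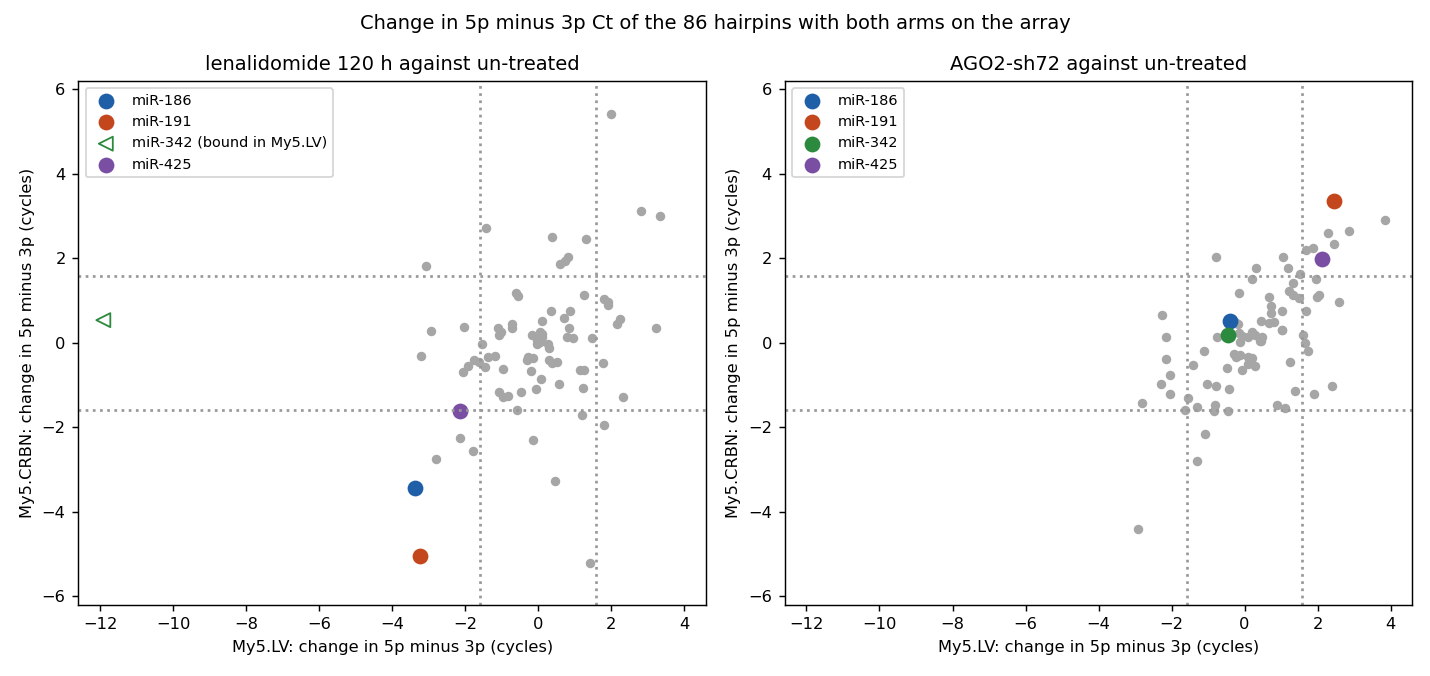
Change in the Ct difference between the arms (cycles, 5p minus 3p, treated minus un-treated) in My5.LV cells (x axis) against My5.CRBN cells (y axis) for the 86 hairpins, with 1 array per condition and dotted lines at 3 fold. At 120 hours of lenalidomide miR-186 and miR-191 lie low in both lines and miR-342 (open triangle, an upper bound in My5.LV) in My5.LV only, and with AGO2-sh72 miR-191 and miR-425 lie high while miR-186 and miR-342 lie near 0.

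Between the cell lines the arm differences had no common direction. In un-treated cells, My5.CRBN minus My5.LV was 0.83 cycles for miR-186, -0.96 for miR-191 and -0.54 for miR-342, and 5.81% of the 86 hairpins differed at least 3 fold. Over the 6 matched treatments miR-186 was higher in My5.CRBN cells in 4 and lower in 2, from -0.65 to 1.77 cycles. miR-191 was higher in 2 and lower in 4, from -2.77 to 1.22 cycles. miR-342 was higher in 4 and lower in 2, and apart from 120 hours, where My5.LV had the undetermined well, it ran from -0.54 to 0.87. A single direction at all 6 treatments was found for 5 of the 86 hairpins (5.81%) and for none of the 3.

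miR-425, which lies beside miR-191 in the genome, was the hairpin whose arm difference was most like that of miR-191 over the 12 arrays (Pearson r = 0.92), and over the 10 arrays other than 120 hours r was 0.96. At 120 hours the arm difference of miR-425 changed by -2.14 cycles in My5.LV and by -1.60 in My5.CRBN cells, and with AGO2-sh72 by 2.13 and 1.98. Each was past 3 fold, that at 120 hours in My5.CRBN cells only just, at 3.04 fold. At 120 hours miR-425-3p had log2 fold changes of -1.20 and -2.10 and miR-425-5p of 0.94 and -0.50. The likeness was not particular to this pair over the 12 arrays, where miR-425 was itself most like miR-195 (0.93), then miR-191 (0.92) and miR-93 (0.92). Over the 10 arrays these values were 0.87, 0.96 and 0.87, the highest being that of miR-191. After miR-425, miR-499a (r = 0.91) and miR-181a (0.86) were most like miR-191, with 0.74 and 0.36 over the 10 arrays. miR-186 was most like miR-499a (0.75), miR-342 (0.70) and miR-191 (0.70). Over the 10 arrays these values were -0.12, 0.10 and -0.19, so that the likeness rests on the 120-hour arrays, by which the members were chosen. miR-342 was most like miR-182 (0.84), miR-18b (0.77) and miR-21 (0.70), with the bound on the My5.LV 120-hour array among the 12 values, and over the 10 arrays r was -0.65, 0.38 and -0.28. These correlations describe 12 arrays of the same assays, with 1 value per condition and un-treated cells of both lines among them.

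For single arms, the levels most like those of miR-191-3p were those of miR-425-3p (r = 0.96), miR-300 (0.94) and miR-326 (0.93), with 0.92, 0.86 and 0.89 over the 10 arrays. Those most like miR-186-3p were of miR-509-3p (0.84), miR-31-3p (0.77) and miR-33b-5p (0.76), with 0.70, 0.54 and 0.86 over the 10 arrays. For miR-342-3p they were miR-147a (0.85), miR-331-5p (0.76) and miR-203a (0.75), again with the undetermined well among the values, and without the 120-hour arrays r was -0.35, -0.14 and 0.09. Over the 10 arrays other than 120 hours, the levels of the 5p and 3p arms had an r of 0.82 for miR-186, 0.66 for miR-342 and -0.53 for miR-191. Both AGO2-sh72 arrays are among these 10. On them both arms of miR-186 and of miR-342 had their lowest levels of the 10. There miR-191-5p was also at its lowest, while miR-191-3p was among its highest. The r without the AGO2-sh72 arrays was not taken, so that these values do not show how the arms go together on the other arrays.

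miR-191-3p and miR-425-3p were also alike in base composition. Each is 63.6% G and C, a rank of 28 from the highest among the 330 miRNAs with a sequence, whose median was 47.6%. miR-191-5p is 52.2% and miR-186-3p 45.5% G and C. Over the 73 hairpins with both sequences, the change in the arm difference with AGO2-sh72 had an r of 0.34 for My5.LV and 0.54 for My5.CRBN cells with the G and C content of the 3p minus the 5p arm. At 120 hours r was -0.40 for My5.LV and -0.08 for My5.CRBN cells, and -0.52 in My5.LV cells without miR-342. At 72 hours r was -0.02 for My5.LV and 0.53 for My5.CRBN cells, with AGO2 cDNA and 72 hours -0.11 and 0.37, and with AGO2 cDNA 0.20 and 0.14. The part of base composition in the changes of miR-191 and miR-425 was not tested.

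Loss of the 3p arm was not a general feature of 120 hours of lenalidomide. In My5.LV cells the 3p arm alone was at least 3 fold lower in 6 hairpins, the 5p arm alone in 5 and both arms in 3. In My5.CRBN cells these numbers were 7, 6 and 2. Besides the 3 hairpins, and among those with all wells compared under the cap, the lowest mean changes in arm difference over both lines were of miR-499a (-2.79 for My5.LV and -2.74 for My5.CRBN cells), miR-205 (1.41 and -5.20) and miR-425. The highest were of miR-708 (1.99 and 5.41), miR-143 (3.35 and 3.00) and miR-145 (2.80 and 3.13). The wells of miR-499a-3p compared here were under the cap but late, with a Ct from 33.2 to 34.9. In miR-205 the arms parted in My5.CRBN cells with a log2 fold change of 3.97 for miR-205-5p and -1.23 for miR-205-3p. miR-143-3p rose by 2.25 and 2.16 while miR-143-5p changed by -1.09 and -0.84.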

How the data were processed

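miRNAs of 12 RNA samples, 1 per condition, were measured with miScript miRNA PCR Arrays and an Applied Biosystems real-time PCR instrument, after reverse transcription with the miScript II kit. The values deposited by the authors are Ct values without normalization, and the threshold setting is not given in the sources used here. The authors' deposited fold changes to the un-treated My5.LV array were not used. The Ct cap of 35 and the mean of 6 control wells as normalizer follow an earlier analysis of these data. The members, lists and rules were chosen with earlier results of these data known. Named besides the 6 members were miR-425, the 3 hairpins most changed in each direction at 120 hours among those with all 8 wells compared under the cap, the 3 most alike by Pearson r, and 6 hematopoietic miRNAs. miR-10b, miR-486, miR-223 and the arms of miR-142 were described with their values known. Hairpins are assays with the same name ending in 5p and 3p. With 1 array per condition no test was made, and a miRNA counts as changed from 3 fold. Arrays have no sequencing depth, and the precision is that of 1 well. The counting of changed hairpins was tried on simulated data, of which no result is given here and on which nothing rests. Alternatives were other normalizers, a Ct cap of 32, no cap, wells under the cap, wells under Ct 30 and 2 fold. The 72-hour array as reference was chosen after seeing the data. Python 3.11.15, NumPy 2.4.6, pandas 2.3.3 and Matplotlib 3.10.9 were used.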

Additional observations from a re-analysis of the deposited data

Results flagged for a closer look

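In 3 comparisons the arm difference of a hairpin changed in opposite directions in My5.LV and My5.CRBN cells, by more than the root mean square between control wells in each line. The difference between the lines was not tested, since each line has 1 array per condition, and the control wells give the spread of wells and not of cultures. At 120 hours of lenalidomide, that of miR-342 changed by -11.92 cycles in My5.LV, where the well of miR-342-3p was undetermined, and by 0.54 in My5.CRBN cells, where the largest difference between control wells was 0.56. At 72 hours of lenalidomide, that of miR-191 changed by -0.39 cycles in My5.LV and by 1.55 in My5.CRBN cells, and the value in My5.LV cells lies within the largest difference between control wells, 0.51. With AGO2 cDNA and 72 hours of lenalidomide, that of miR-191 changed by -1.07 cycles in My5.LV and by 1.10 in My5.CRBN cells, and the value in My5.LV cells again lies within the largest difference, 1.75.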

How the results depend on the processing

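No paired analysis was made, since each condition has 1 array and replicate numbers pair no samples. An additive fit with the cell line as a block could be made but was not run, since it takes lines that differ in CRBN as replicates. Of the changes in the arm difference, 3 of 30 moved by more than the spread between control wells with a Ct cap of 32 and 4 of 6 with the 72-hour array as reference, and 0 of those past 3 fold turned direction. With a Ct cap of 32 the change at 120 hours in My5.LV cells was -2.15 for miR-186 and -8.92 for miR-342, since a lower cap takes off what lies above it. With the 72-hour array as reference it was -4.73 (My5.LV) and -4.19 (My5.CRBN) for miR-186, -6.59 (My5.CRBN) for miR-191 and -0.41 (My5.CRBN) for miR-342. Without a cap, or with wells under the cap only, miR-342 has no value at 120 hours in My5.LV cells, and the other changes cannot move, since those wells are all under 35. For single arms, 63 of 240 values moved by more than the SD of the control wells, 30 of them under RNU6 alone and 24 under the global mean. The number of hairpins past the fold changed with the fold and with the number of hairpins kept. At 2 fold, 16 were lower and 31 higher with AGO2-sh72 in My5.LV cells, against 18 and 23 in My5.CRBN cells, 24 and 20 at 120 hours in My5.LV cells, and 19 lower in My5.CRBN cells. With both arms under Ct 30 on at least 1 array these numbers were 2 and 9, 0 and 7, 8 and 4, and 4 lower and 3 higher, with 43, 41, 46 and 54 hairpins left. As a share of those left, the hairpins that were higher with AGO2-sh72 (20.9%) and lower at 120 hours (17.4%) in My5.LV cells did not move, while the other shares were lower or, for those higher with AGO2-sh72 in My5.CRBN cells, 17.1% against 15.1%. Hairpins that were lower with AGO2-sh72 made up 4.65% for My5.LV and 0% for My5.CRBN cells. At 120 hours those that were higher made up 8.7% for My5.LV and 5.56% for My5.CRBN cells, and those that were lower 7.41% for My5.CRBN cells. This filter leaves out miR-186, since miR-186-3p had a Ct of 30.7 without treatment and 33.2 at 120 hours in My5.LV cells, and of 30.5 and 31.7 in My5.CRBN cells, so that its calls at 120 hours are lost. With a Ct cap of 32, 3 were lower and 8 higher with AGO2-sh72 in My5.CRBN cells, and with wells under the cap 6 were higher at 120 hours in My5.CRBN cells. Wells of low level such as miR-186-3p rest on late cycles.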

Other observations

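The hematopoietic miRNAs used as a check of the cells include arms of miR-142 and miR-223. At 120 hours the arm difference changed by 0.60 cycles in My5.LV and by 1.87 in My5.CRBN cells for miR-142, and by 2.23 and 0.55 for miR-223. miR-142-3p had a normalized level of 3.92 in un-treated My5.CRBN cells and 6.27 at 120 hours of lenalidomide, where its Ct of 12.4 was the lowest of its 12 arrays. In My5.LV cells its levels were 3.54 and 3.84. miR-142-5p had levels of -0.92 and -0.44 in My5.CRBN cells and of -0.81 and -1.10 in My5.LV cells. miR-223-3p had levels of -7.84 and -5.89 in My5.CRBN cells and of -9.70 and -7.90 in My5.LV cells, without treatment and at 120 hours.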
